A study of Mus musculus with 44 samples.

Results

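The genes of oxidative phosphorylation were followed through 3 deposited expression tables from mouse dorsal root ganglia (DRGs), the nuclear genes apart from those of the mitochondrial genome. Members were chosen by symbol: every row named Nduf, Sdh (a to d), Uqcr, Cox4 to Cox8, Atp5, mt-Nd, mt-Co, mt-Atp or mt-Cytb. The tables of naive mice and of satellite glia after surgery each held 109 such rows among 45882 genes, of which 96 were nuclear and 13 mitochondrial. The neuron table held 98 among 12170 genes, 87 nuclear and 11 mitochondrial. A member is reported where it reached 1 FPKM (a fragment count divided by transcript length and by the library's mapped fragments) in at least 3 libraries, which left 102, 101 and 98 members.

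The series holds 44 bulk RNA libraries of C57BL/6 mice in 12 groups. Satellite glial cells (SGCs) form a sheath around the cell body of each sensory neuron. From naive mice aged 9 weeks came 4 libraries of such cells after sorting and 4 libraries of whole, unsorted DRGs. Mice of all other groups were 9 to 11 weeks old. Sorted SGCs were taken after full ligation of the sciatic nerve or after sham surgery, at 3 days and at 14 days, with 4 libraries in each of these groups. Neurons were isolated 8 days after surgery: 4 libraries from the side of a partial ligation and 4 from the opposite side of ligated mice, 3 each from ligated and sham males, and 3 each from ligated and sham females. SGC and DRG preparations were fixed with paraformaldehyde and purified with a kit for fixed tissue, and SGCs were collected by fluorescence-activated sorting. Neurons were enriched with magnetic beads and were not fixed. The sources used here do not say whether a library pools animals or which libraries share an animal, so p-values measure only the spread between these libraries. The tables give no counts, so sequencing depth is unknown, and genes at 1 FPKM or more numbered 11441 to 13173 per library in naive mice, 11452 to 12775 in SGCs after surgery and 10225 to 11004 in neurons.

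Oxidative phosphorylation is the last stage of respiration, in the inner mitochondrial membrane. Complexes I to IV pass electrons from NADH and succinate to oxygen and, except for complex II, pump protons, and complex V (ATP synthase) uses the proton gradient to make ATP. Complex II is encoded wholly in the nucleus, whereas the other complexes combine many nuclear subunits with a few made from mitochondrial DNA, so both genomes have to supply parts. Sensory neurons spend much ATP on ion pumping and on transport along long axons, and the satellite glia around them take up ions and transmitters from the space between.

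Of the 101 members tested in the naive table, 90 were nuclear: 44 belong to complex I, 4 to complex II, 8 to complex III, 15 to complex IV and 19 to complex V. Assembly factors are counted with the complex they build, and Ndufa4 is counted with complex IV, where it is a subunit despite its name. The 90 comprise 78 subunits, 8 assembly factors, 3 transcribed pseudogenes and Atp5s, a coupling factor. Members below the rule in the naive table were mt-Nd4l, mt-Atp8, Cox8c and a second Uqcrc1 identifier, all listed at 0, with Cox7b2 and Cox8b (2 libraries at 1 FPKM each) and the pseudogene Atp5l-ps2 (1 library). Just inside stood Ndufa4l2 with 3 libraries, whose highest value was 3.65 FPKM and which was too low to be tested, and Cox6a2 with 4. In the SGC surgery table, Cox8b (2 libraries) and Cox6a2 (1 library) lay just outside and Cox7b2 (4 libraries) just inside. Cox4i1, the common form of complex IV subunit 4, has no row in the 3 FPKM tables used here and appears below only from the authors' tables.

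The mitochondrial members fell into high and low rows. Among the 16 SGC libraries after surgery, median levels were 8051 FPKM for mt-Nd1, 7125 for mt-Cytb, 5116 for mt-Nd6, 4800 for mt-Co1, 3868 for mt-Nd2, 2715 for mt-Nd4 and 1814 for mt-Nd5. The rows for mt-Nd3, mt-Atp6, mt-Co3 and mt-Co2 were far lower, with medians of 89.9, 14.6, 14.3 and 9.13 FPKM, and mt-Nd4l and mt-Atp8 were listed at 0 in all 16. These genes were compared with the other transcripts of GENCODE M21 (build GRCm38) to find copies of mitochondrial DNA in the nuclear genome. All 13 had one, and 3 of the low rows had a copy that matched base for base along nearly the whole gene. The pseudogene Gm28661 on chromosome 1 matches 681 of the 684 bases of mt-Co2 without a difference, Gm10925 matches 678 bases of mt-Atp6, and Gm28437 matches 783 bases of mt-Co3. The copies had about as much signal as the genes: 8.72 FPKM for Gm28661, 13.7 for Gm10925 and 10.4 for Gm28437 (medians of the same 16 libraries). Such reads could be given to either place, so the levels of mt-Co2, mt-Atp6, mt-Co3 and mt-Nd4l, whose copy Gm10222 is also identical, are uncertain. How the authors assigned reads that match several places is not given in the sources used here, and its part in these levels was not tested.

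The contrast is visible in stretches of 60 bases from an identical and from a diverged pair. Capitals mark the bases that differ, 4 of 60 in the second pair and none in the first, all written 5′ to 3′ along the gene.
mt-Co2 (GRCm38, chrM:7013-7072, plus strand): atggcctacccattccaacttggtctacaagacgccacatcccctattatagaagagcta
Gm28661 (GRCm38, chr1:24615506-24615565, minus strand): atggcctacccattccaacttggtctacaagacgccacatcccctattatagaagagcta
mt-Co1 (GRCm38, chrM:5787-5846, plus strand): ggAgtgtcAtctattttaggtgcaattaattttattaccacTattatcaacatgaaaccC
Gm13340 (GRCm38, chr2:22589129-22589188, minus strand): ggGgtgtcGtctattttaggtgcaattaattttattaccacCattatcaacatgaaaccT

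Over its whole length mt-Co1 is 97.6% identical to Gm13340, and there the gene had 4800 FPKM and the copy 2.57. For mt-Nd4 the copy Gm28439 is identical but covers 63.6% of the gene, and the medians were 2715 FPKM for the gene and 0.106 for the copy. For mt-Nd3, with 1 base different from Gm28438 among 345, the medians were 89.9 and 1.92 FPKM. The 7 mitochondrial rows from mt-Nd5 (1814 FPKM) upward each had a best nuclear copy that is diverged or partial, but so did mt-Atp8, which was listed at 0; this describes the 13 genes, with no test.

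**Figure D1:**
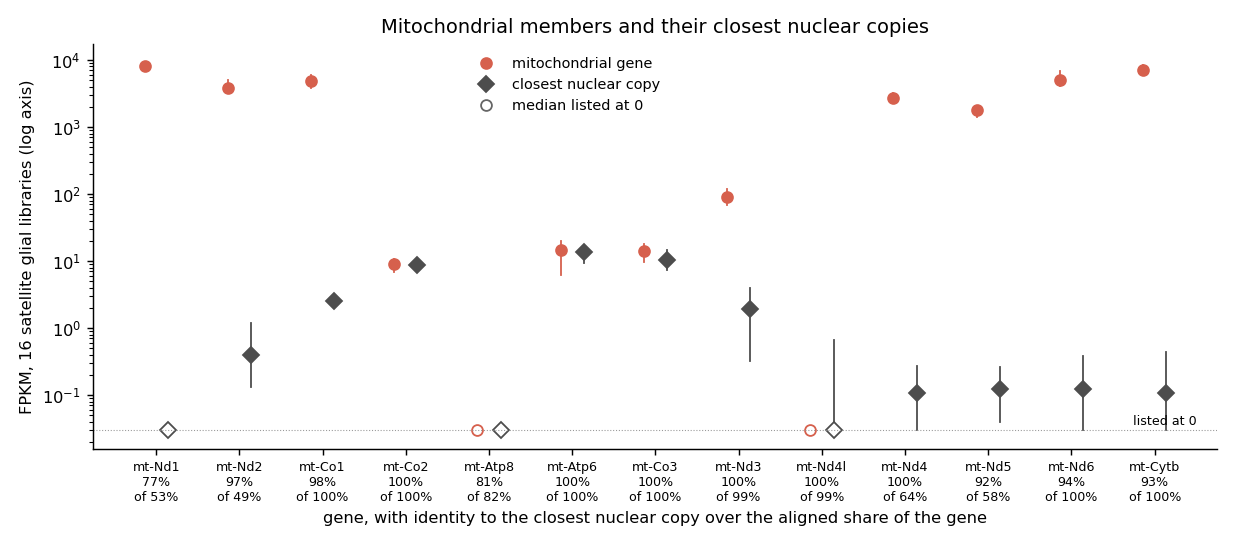
FPKM (log axis) of each mitochondrially encoded gene and of its closest nuclear copy in the 16 SGC libraries after surgery; symbols are medians, vertical lines run from the lowest to the highest library, open symbols on the dotted line are medians listed at 0, and the labels give the percent identity over the percent of the gene that aligns. The genes mt-Co2, mt-Atp6 and mt-Co3 lie beside their identical copies (medians of 9.13, 14.6 and 14.3 FPKM for the genes), whereas mt-Nd1 and mt-Cytb reach 8051 and 7125 FPKM.

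The first comparison set sorted SGCs against whole DRGs in naive mice. Nuclear genes of oxidative phosphorylation were lower in the sorted cells across all 5 complexes, and mitochondrially encoded genes were not. Of the 90 nuclear members, 54 (60%) were lower in SGCs and 2 were higher at a limma adjusted p under 0.05; 1 of the 54, Cox6a2, passed the filter on low values through the DRG libraries alone. Among all 12907 genes tested 44.9% were called, 27.9% as lower and 16.9% as higher. The median log2 difference was -0.64 over the nuclear members and -0.12 over all genes, and 84 of the 90 had a negative difference, against 56.1% of all genes. Summed over the nuclear members, the level was 44223 ± 5192 FPKM in SGCs and 66910 ± 8640 in DRGs (SD, n = 4 each). The lowest DRG library, with 54408 FPKM, stood above the highest SGC library, with 47954.

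The size of this difference depended on what the libraries were scaled to. As a share of the summed FPKM of protein-coding nuclear genes, the nuclear members made up 9.86% to 11.2% in SGCs and 12.3% to 14.9% in DRGs. Scaling to the protein-coding nuclear genes, chosen after seeing the data, left 41 nuclear members lower and 2 higher, with a median of -0.43 where all genes had 0.04. Scaling to all nuclear genes gave 71 lower and 1 higher, with a median of -1.04 where all genes had -0.46. That total ran from 1110277 to 2161338 FPKM per library, and its protein-coding part from 373952 to 503613. Rows that are not protein-coding therefore held most of what this scaling follows. Quantile normalization gave 40 lower and 2 higher, with medians of -0.42 and 0.16.

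The cells in the 2 preparations differed in the same libraries. Of the marker lists, all 11 satellite glial markers were higher in SGCs, with a summed level of 18307 to 25855 FPKM in SGCs and 6684 to 10123 in DRGs. All 14 neuronal markers tested were lower, with sums of 129 to 292 FPKM in SGCs and 3398 to 6543 in DRGs. Macrophage markers (11 of 11 lower) summed to 4.14 to 12.6 FPKM in SGCs and 114 to 134 in DRGs, and erythrocyte markers (5 of 5 lower) to 0.704 to 1.11 in SGCs and 1352 to 3220 in DRGs. Schwann cell markers (6 lower and 1 higher of 9) summed to 645 to 745 FPKM in SGCs and 1323 to 1782 in DRGs. Of 10 endothelial markers 4 were higher, of 6 mural markers 4 were lower and 1 higher, and of 5 fibroblast markers 1 was higher. Of the lower ones, 6 macrophage, 5 erythrocyte, 2 mural and 2 Schwann cell markers passed the filter on low values through the DRGs alone and so had to differ. In bulk libraries, fewer cells of a type and less RNA per cell cannot be told apart, and the part of the other cell types in the results below was not tested.

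**Figure D2:**
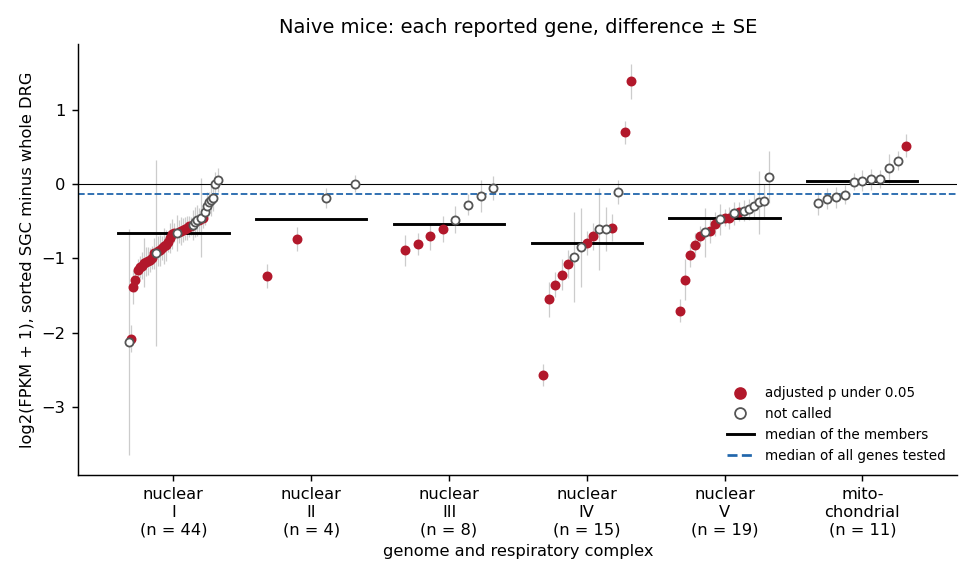
Difference in log2(FPKM + 1) between sorted SGCs and whole DRGs of naive mice for each member tested, with its standard error, by genome and complex; filled points passed an adjusted p under 0.05, black bars are medians of the members and the dashed line is the median of all genes, -0.12. Most nuclear members lie below 0 in each of the 5 complexes, 2 complex IV genes lie above it, and the 11 mitochondrial members lie around 0. The lowest complex IV point is Cox6a2, listed at 0 in all 4 SGC libraries.

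Complex I, which takes electrons from NADH, had 30 of 44 nuclear members lower and none higher in SGCs, with a median of -0.66. The largest called differences were those of Ndufaf5, Ndufs3 and Ndufa11. Ndufaf5 (ENSMUSG00000027384, chromosome 2, 140170649 to 140203689, GRCm38), an assembly factor that modifies a core subunit, had 5.43, 5.24, 4.72 and 6.16 FPKM in SGCs, against 28.8, 29.7, 29.2 and 18.0 in DRGs. The groups did not overlap, and the log2 difference was -2.08 ± 0.18 (SE, limma adjusted p = 5.92e-05). Ndufs3, a core subunit of the peripheral arm, had 26.4, 15.4, 20.1 and 15.1 FPKM in SGCs, against 51.1, 68.0, 49.7 and 37.5 in DRGs. Its difference was -1.38 ± 0.23 (limma adjusted p = 0.00138). Ndufa11, an accessory subunit of the membrane arm, averaged 91.1 ± 10.8 FPKM in SGCs and 226 ± 35.2 in DRGs, a difference of -1.29 ± 0.15 (limma adjusted p = 0.000244), again with no overlap. Ndufa13 had 264 ± 41.9 FPKM in SGCs and 264 ± 43.2 in DRGs, and Ndufa7 1262 ± 179 in SGCs and 1208 ± 165 in DRGs, and neither passed the test. These 2 subunits were chosen after their values were seen.

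Complex II, the succinate dehydrogenase of the citric acid cycle, was split. Sdhb (chromosome 4, 140961203 to 140979193), the iron-sulfur subunit, had 106, 139, 116 and 109.5 FPKM in SGCs, against 306, 338, 249 and 230 in DRGs, a difference of -1.24 ± 0.16 (limma adjusted p = 0.00036). Sdhd, a membrane anchor, averaged 79.6 ± 8.79 FPKM in SGCs and 135 ± 25.9 in DRGs (-0.74 ± 0.16, limma adjusted p = 0.00555). In both genes every SGC library lay below every DRG library. Sdha, the catalytic flavoprotein, had 62.2 ± 4.12 FPKM in SGCs and 61.9 ± 5.67 in DRGs, and Sdhc, the other anchor, 99.2 ± 12.7 in SGCs and 113 ± 12.4 in DRGs. The differences of Sdha (0.01 ± 0.12) and Sdhc (-0.19 ± 0.14) did not pass the test.

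Complex III, which passes electrons from ubiquinol to cytochrome c, had 4 of 8 nuclear members lower, with a median of -0.54. They were the core protein Uqcrc1 (19.3 ± 4.19 FPKM in SGCs and 36.6 ± 8.13 in DRGs, -0.89 ± 0.21), the small subunit Uqcrq (1993 ± 201 FPKM in SGCs and 3499 ± 479 in DRGs, -0.81 ± 0.15), the hinge protein Uqcrh (-0.70 ± 0.18) and Uqcr10 (-0.60 ± 0.17). Uqcrb, with 1229 ± 202 FPKM in SGCs and 1265 ± 141 in DRGs, and Uqcrc2, with 64.0 ± 20.8 in SGCs and 69.5 ± 9.55 in DRGs, overlapped between the groups and did not pass.

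Complex V had 10 of 19 nuclear members lower and none higher, with a median of -0.45. The genes of its membrane ring, subunit c, are 3 paralogs whose mature protein is the same. Atp5g1 (chromosome 11, 96068852 to 96075670) had 450, 517, 545 and 489 FPKM in SGCs, against 1817, 1909, 1586 and 1279 in DRGs, a difference of -1.71 ± 0.16 (limma adjusted p = 6.94e-05). Atp5g3 had a difference of -0.96 ± 0.15 and Atp5g2 one of -0.45 ± 0.11, both called. The groups did not overlap for any of the 3 paralogs. Atp5d, a subunit of the central stalk, averaged 50.6 ± 20.9 FPKM in SGCs and 118 ± 16.4 in DRGs (-1.29 ± 0.28). Atp5j, a peripheral stalk subunit, had 1496 ± 239 FPKM in SGCs and 1833 ± 256 in DRGs and did not pass.

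Complex IV, which hands electrons to oxygen, held genes that moved in opposite directions: 8 of 15 were lower and 2 higher. The 8 include Cox6a2, which passed the filter on low values through the DRG libraries alone and so had to differ, and without it 7 were lower. Cox5a averaged 32.8 ± 7.21 FPKM in SGCs and 98.9 ± 24.5 in DRGs (-1.55 ± 0.23, limma adjusted p = 0.000822). Cox7a2l averaged 45.6 ± 9.27 FPKM in SGCs and 117 ± 16.3 in DRGs (-1.36 ± 0.17). Ndufa4 averaged 1993 ± 323 FPKM in SGCs and 4686 ± 1003 in DRGs (-1.22 ± 0.21). For these 3 genes the groups did not overlap.

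The 2 genes that were higher in SGCs, Cox7a1 and Cox6b2, are isoforms of complex IV subunits whose common forms were lower. Cox7a1 (ENSMUSG00000074218, chromosome 7, 30184144 to 30186078), known as the heart and skeletal muscle form, had 284, 360, 380 and 395 FPKM in SGCs, against 215, 180, 243 and 232 in DRGs, a difference of 0.70 ± 0.15 (limma adjusted p = 0.0054). Its widely expressed partner Cox7a2 had 479.5, 572, 722 and 654 FPKM in SGCs, against 1394, 1380, 1435 and 939 in DRGs (-1.08 ± 0.19, limma adjusted p = 0.00184). In both genes the groups were apart, in opposite directions. Scaled to all nuclear genes, Cox7a1 kept its sign but was no longer called (0.29 ± 0.20).

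Cox6b2 (chromosome 7, 4751792 to 4753094), known as the testis form, had 115, 105, 176 and 108 FPKM in SGCs, against 41.1, 32.9, 59.2 and 57.2 in DRGs, a difference of 1.39 ± 0.24 (limma adjusted p = 0.00159). Its common form Cox6b1 had 1461, 1692, 1975 and 1862 FPKM in SGCs, against 3167, 2989, 3185 and 2120 in DRGs (-0.70 ± 0.18). The muscle form Cox6a2 was listed at 0 in all 4 SGC libraries and had 4.53, 4.13, 5.91 and 5.36 FPKM in DRGs. Its common form Cox6a1 had 502, 548, 118 and 478 FPKM in SGCs, against 1075, 413, 454 and 820 in DRGs, and these overlapped. Cox4i2, the lung form of subunit 4, had 3.93 ± 2.80 FPKM in SGCs and 7.11 ± 3.35 in DRGs and overlapped as well.

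Ratios between paralogs within a library do not depend on how that library was scaled. Cox7a1 reached 58.8 ± 4.40 FPKM per 100 FPKM of Cox7a2 in SGCs and 17.5 ± 5.05 in DRGs. Cox6b2 reached 7.19 ± 1.44 per 100 of Cox6b1 in SGCs and 1.74 ± 0.716 in DRGs. Atp5g1 reached 130 ± 8.32 per 100 of Atp5g3 in SGCs and 220 ± 27.9 in DRGs. The groups did not overlap in any of these ratios. For Cox7a1 and Cox6b2 this follows from the levels given above, where both genes of a pair were already apart in opposite directions, so these ratios are a description with no test. For Atp5g1 per Atp5g3 the exact two-sided permutation test gave p = 0.0286, the smallest value that 4 against 4 allows. The same ratios in the other tables, whose libraries were made differently, are set beside these with no test. In SGCs after surgery the group means of Cox7a1 per 100 Cox7a2 were 40.6 ± 5.23 in ligated and 50.3 ± 7.54 in sham mice at 3 days, and 44.5 ± 7.36 in ligated and 50.6 ± 7.75 in sham mice at 14 days. In neurons the 6 group means lay between 0.515 and 1.15 per 100. Cox6b2 per 100 Cox6b1 averaged 5.40 to 6.52 in the surgery groups, and Atp5g1 per 100 Atp5g3 averaged 108 to 124 in the surgery groups and 174 to 226 in the neuron groups.

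**Figure D3:**
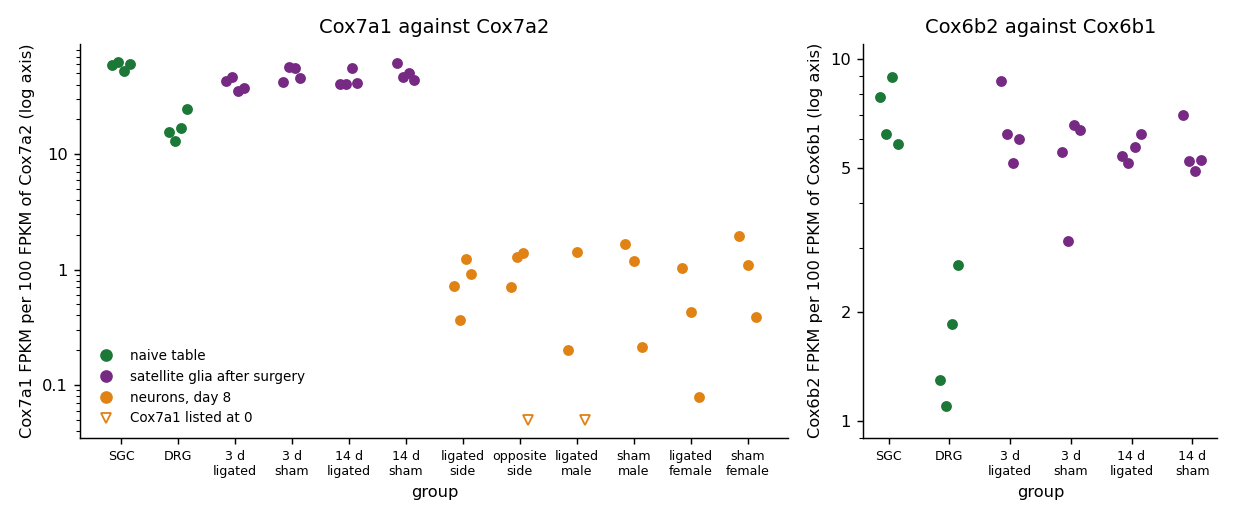
FPKM of Cox7a1 per 100 FPKM of Cox7a2 in every library (left) and of Cox6b2 per 100 FPKM of Cox6b1 in the SGC and DRG libraries (right), both on log axes, 1 point per library and open triangles for libraries in which Cox7a1 is listed at 0. SGC libraries of both tables lie at the top of the Cox7a1 panel, naive DRGs below them with a mean of 17.5, and neurons at the bottom with group means of 0.515 to 1.15.

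The promoters of nuclear members were searched because so many of the genes were lower together. RefSeq promoter windows (GRCm38.p6, 250 bases before to 50 after the start) were matched for 73 of 91 nuclear symbols, giving 78 windows among 32851 in all. Motifs were searched on both strands: NRF1 (GCGCA, any base, then GCGC), the ETS motif bound by GABPA (CCGGAAG) and YY1 (AAGATGGC), factors long tied to respiratory genes, and no 2 of these letter strings contain each other. NRF1 letters were in 25.6% of member windows and 4.6% of all windows, ETS letters in 21.8% and 8.86%, and YY1 letters in 11.5% and 2.75%. At least 1 of the 3 was in 51.3% of member windows, against 14.7% of all windows. Among members lower in SGCs it was 61.2% of 49 windows, among members not called 40% of 25, and neither window of Cox7a1 and Cox6b2 held any. Only NRF1 letters differed between these sets, with 32.7% of the lower and 16% of the not called windows. ETS letters were in 22.4% and 24%, and YY1 letters in 12.2% and 12%, with no test. These are counts of letters and say nothing of binding.

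The windows of both isoforms that were higher in SGCs and of the 2 complex I subunits with the largest called differences are shown, with motif letters in capitals (CCGGAAG on either strand in Ndufs3, the NRF1 letters in Ndufa11) and no motif in the first pair.
Cox7a1 (GRCm38.p6, chr7:30183921-30184220, plus strand): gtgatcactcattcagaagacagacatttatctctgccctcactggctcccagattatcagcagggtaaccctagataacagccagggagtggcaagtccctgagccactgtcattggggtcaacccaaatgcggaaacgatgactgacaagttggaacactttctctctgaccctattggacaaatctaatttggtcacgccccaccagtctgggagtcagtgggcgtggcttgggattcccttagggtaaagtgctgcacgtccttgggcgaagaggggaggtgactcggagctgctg
Cox6b2 (GRCm38.p6, chr7:4753045-4753344, minus strand): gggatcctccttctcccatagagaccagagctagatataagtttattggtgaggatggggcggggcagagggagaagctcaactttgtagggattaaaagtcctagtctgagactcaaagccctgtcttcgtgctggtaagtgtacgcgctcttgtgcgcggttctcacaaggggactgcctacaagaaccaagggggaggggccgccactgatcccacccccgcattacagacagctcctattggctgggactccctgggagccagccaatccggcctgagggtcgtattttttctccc
Ndufs3 (GRCm38.p6, chr2:90904672-90904971, minus strand): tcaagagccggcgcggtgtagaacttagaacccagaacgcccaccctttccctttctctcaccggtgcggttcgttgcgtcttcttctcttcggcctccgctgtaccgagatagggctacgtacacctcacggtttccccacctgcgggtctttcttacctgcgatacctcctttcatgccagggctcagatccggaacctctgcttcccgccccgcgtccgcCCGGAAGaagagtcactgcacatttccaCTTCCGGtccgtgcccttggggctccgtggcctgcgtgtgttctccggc
Ndufa11 (GRCm38.p6, chr17:56717512-56717811, plus strand): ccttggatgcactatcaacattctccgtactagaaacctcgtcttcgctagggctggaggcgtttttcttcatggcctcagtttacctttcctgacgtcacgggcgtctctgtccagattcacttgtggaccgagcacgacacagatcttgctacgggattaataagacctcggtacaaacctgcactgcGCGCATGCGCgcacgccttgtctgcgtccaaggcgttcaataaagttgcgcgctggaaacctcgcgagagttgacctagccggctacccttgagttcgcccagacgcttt

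The mitochondrially encoded members did not share the difference of the nuclear ones. Their summed level was 33749 to 37254 FPKM in SGCs and 30352 to 34726 in DRGs, and these overlapped. The ratio of the mitochondrial to the nuclear sum was 0.733 to 0.915 in SGCs and 0.414 to 0.625 in DRGs, with no overlap. Of the 11 tested, 1 was called: mt-Nd6, the subunit encoded on the light strand (chromosome M, 13552 to 14070, minus strand), had 5500, 4913, 5642 and 5301 FPKM in SGCs, against 3581, 3246, 4667 and 3547 in DRGs (0.52 ± 0.16, limma adjusted p = 0.0247). The call was lost under quantile normalization (0.10 ± 0.17), after scaling to all nuclear genes (0.10 ± 0.22) and in 6 other alternatives. Whether the counting used strand is not given in the sources used here, so reads from the opposite strand of mt-Nd6 cannot be told apart from its own. The next, mt-Nd2, had 4361 ± 199 FPKM in SGCs and 3504 ± 340 in DRGs, with no overlap but a limma adjusted p of 0.0803. The other 9 overlapped: mt-Nd1 (0.07), mt-Nd3 (0.22), mt-Nd4 (0.07), mt-Nd5 (0.04) and mt-Co1 (0.05) had log2 differences above 0, and mt-Cytb (-0.17), mt-Co2 (-0.19), mt-Co3 (-0.14) and mt-Atp6 (-0.26) below. The direction of the 11 as a group depended on the scaling: their median difference was 0.05, against -0.37 after scaling to all nuclear genes and -0.01 after quantile normalization.

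Other mitochondrial genes of the naive comparison were counted in lists. Among all genes tested 27.9% were lower and 16.9% higher, with a median of -0.12. Of 37 assembly factors outside the rule, 18 were lower and none higher (median -0.70), among them Coa3 (-1.47 ± 0.15), a complex IV factor, Ttc19 (-2.25 ± 0.70) and Lyrm7 (-1.44 ± 0.37), both complex III factors. Of 19 electron carriers and genes associated with ATP synthase, 8 were lower (median -0.55). Atpif1, the inhibitor of ATP synthase, averaged 675 ± 91.8 FPKM in SGCs and 2605 ± 469 in DRGs (-1.94 ± 0.18), and Cycs, cytochrome c itself, 139 ± 20.8 in SGCs and 345 ± 67.8 in DRGs (-1.29 ± 0.19). Slc25a4, an ADP/ATP carrier, had a difference of -1.08 ± 0.12. Of 16 citric acid cycle genes, 11 were lower and 1 higher (median -0.52), with Mdh2 at -1.50 ± 0.18, Pdhb at -1.43 ± 0.22 and the GTP-forming succinyl-CoA ligase subunit Suclg2 at 1.16 ± 0.16. Of 78 mitochondrial ribosomal proteins, 31 were lower and 1 higher (median -0.54). Mrps15 stood at -2.06 ± 0.35, Mrpl35 at -1.19 ± 0.17 and Mrps28 at 0.52 ± 0.15. Of the 31, Mrps18b was listed at 0 in all 4 SGC libraries and averaged 23.1 ± 3.43 FPKM in DRGs. Mrps18b passed the filter on low values through the DRG libraries alone and so had to differ.

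Of 26 regulators of mitochondrial transcription and biogenesis tested, 3 were lower and 2 higher, and their median was 0.01. Both shares were below those of all genes, 27.9% lower and 16.9% higher. Ppargc1a, a coactivator that drives mitochondrial biogenesis in muscle and brown fat, averaged 16.4 ± 1.51 FPKM in SGCs and 9.32 ± 0.353 in DRGs (0.75 ± 0.12, limma adjusted p = 0.00104). Polrmt, the mitochondrial RNA polymerase, was higher as well (0.64 ± 0.22). Ppargc1b (-1.45 ± 0.20, and below 1 FPKM in all 4 SGC libraries), Fastkd2 (-1.56 ± 0.44) and Lrpprc (-0.80 ± 0.22) were lower. Of these, Ppargc1b passed the filter on low values through the DRG libraries alone and so had to differ. The packaging and transcription factor Tfam (0.14 ± 0.29) did not pass.

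The second set of comparisons asked what ligation of the sciatic nerve did in SGCs. No member was called at either time. At 3 days 9 of 13924 genes were called (0.0646%, with 0.0431% as higher and 0.0215% as lower) and at 14 days 1 (0.00718%), while 1269 and 718 genes had an unadjusted p under 0.05. The nuclear members nonetheless leaned to lower values after ligation. At 3 days 67 of 90 (74.4%) had a negative difference, against 51.4% of all genes, with medians of -0.14 and -0.01, and the 8 members with an unadjusted p under 0.05 were all negative. At 14 days 77 of 90 (85.6%) were negative, against 52.2% of all genes, with medians of -0.13 and -0.02, and 2 members had an unadjusted p under 0.05. Genes of a pathway can vary together between libraries, so these shares are no test. Negative members numbered 63 to 68 at 3 days and 65 to 78 at 14 days over the other scalings, filters and fits. Single libraries moved the medians: without ligated replicate 4 at 14 days 60 members were negative (median -0.07), and without ligated replicate 1 at 3 days 60 were negative (median -0.09).

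Summed over the nuclear members, SGCs had 36869 ± 4686 FPKM after ligation and 40793 ± 1532 after sham surgery at 3 days, and 39993 ± 4672 after ligation and 43813 ± 3223 after sham surgery at 14 days (n = 4 each). The ranges overlapped at both times: 32461 to 41783 in ligated and 39347 to 42944 in sham mice at 3 days, and 33459 to 44525 in ligated and 40621 to 47162 in sham mice at 14 days. The mitochondrial sums, 33820 ± 3157 in ligated and 34943 ± 1485 in sham mice at 3 days and 31974 ± 2193 in ligated and 35369 ± 2281 in sham mice at 14 days, overlapped too. Of the 11 mitochondrial members, 7 had a negative difference at 3 days (median -0.02, but 0.01 and 0.02 after scaling to all or to protein-coding nuclear genes) and 11 at 14 days (median -0.12), and 9 were negative at 14 days under each of 4 other scalings. At 14 days the differences ran from -0.26 for mt-Co2 and -0.22 for mt-Cytb to -0.02 for mt-Nd3 and mt-Atp6.

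By complex, 16 of 19 complex V members were negative at 3 days (median -0.20), 4 of 4 in complex II, 6 of 8 in complex III, 10 of 15 in complex IV and 31 of 44 in complex I. The member nearest to the threshold was Atp5h (chromosome 11, 115415689 to 115419962), subunit d of the peripheral stalk. It had 583, 581, 583 and 522 FPKM in ligated mice at 3 days, against 771, 758, 778 and 724 in sham mice. The groups did not overlap, yet the difference of -0.42 ± 0.09 had a limma adjusted p of 0.109. At 14 days it had 787, 675, 692 and 692 FPKM in ligated mice, against 789, 777, 749 and 750 in sham mice, which overlapped. Atp5b, the catalytic beta subunit, had 498 ± 24.7 FPKM in ligated and 597 ± 47.1 in sham mice at 3 days (-0.26 ± 0.11), also without overlap and without passing (limma adjusted p = 0.487). Uqcr11, a small complex III subunit (-0.32 ± 0.12), Cox7a1 (-0.57 ± 0.20) and the pseudogene Atp5k-ps2 (-0.99 ± 0.37) had adjusted p-values of 0.442, 0.416 and 0.433, and their groups overlapped. Cox7a1 had 197, 310, 216 and 166 FPKM in ligated mice at 3 days, against 283, 386, 343 and 282 in sham mice.

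At 14 days the smallest p-value among the members was that of Cox7c, a small complex IV subunit, with 1254, 1293, 1411 and 1249 FPKM in ligated mice, against 1433, 1685, 1748 and 1610 in sham mice. The groups did not overlap, and the difference of -0.31 ± 0.11 had a limma adjusted p of 0.876. Atp5o (-0.26 ± 0.12), the stalk protein that confers oligomycin sensitivity, Uqcrb (-0.30 ± 0.15) and Atp5j (-0.20 ± 0.10) had limma adjusted p-values of 0.973 to 0.985, and of these Atp5j did not overlap between the groups. Atp5s (-1.15 ± 0.51) was low, with 3.68 ± 4.11 FPKM in ligated and 6.76 ± 1.61 in sham mice. Neither the difference between the effects at 14 and at 3 days (0.00718% of all genes called) nor the change from 3 to 14 days in ligated (0.00718%) or sham mice (0%) called a member. Later libraries leaned to higher nuclear values in both: 72 of 90 members were positive in ligated mice (median 0.12) and 73 in sham mice (median 0.11), where the median of all genes was 0.06 in each. In sham mice 695 genes had an unadjusted p under 0.05.

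The authors' deposited tables, fitted by them with DESeq2, called no member either. Of 94 nuclear members, 67 were lower after ligation at 3 days and 75 at 14 days in the authors' deposited tables, with lowest adjusted p-values of 0.31 and 0.173. The libraries are the same, so this is no independent support. Cox4i1 had log2 fold changes of -0.25 at 3 days and -0.16 at 14 days in the authors' deposited table (ligated over sham), with adjusted p-values of 0.470 and 0.523. The other mitochondrial lists had no called gene at either time. Ppargc1a averaged 11.8 ± 0.175 FPKM in ligated and 16.4 ± 1.65 in sham mice at 3 days (-0.44 ± 0.14, limma adjusted p = 0.352), and 13.8 ± 2.09 in ligated and 17.7 ± 2.11 in sham mice at 14 days (-0.35 ± 0.14, limma adjusted p = 0.884). Cycs (-0.17 at 3 days and -0.12 at 14 days) and Tfam (0.84 and -0.40) did not pass. Markers of cell types had no called gene either, and their part in the lean of the members was not tested. Satellite glial markers were negative in 6 of 11 at 3 days (median -0.01) and in 9 of 11 at 14 days (median -0.15), with sums of 14162 to 20607 FPKM in ligated and 15159 to 20350 in sham mice at 3 days, and 16908 to 21957 in ligated and 20161 to 22204 in sham mice at 14 days. All 10 endothelial markers were positive at both times (medians 0.75 and 0.46), with sums of 309 to 558 FPKM in ligated and 207 to 400 in sham mice at 3 days, and 256 to 441 in ligated and 187 to 357 in sham mice at 14 days. Of 5 macrophage markers 2 were positive at 3 days (median -0.33) and 5 at 14 days (median 0.94), with sums of 8.18 to 33.8 FPKM in ligated and 8.06 to 20.3 in sham mice at 3 days, and 16.6 to 44.6 in ligated and 5.87 to 26.8 in sham mice at 14 days. The medians at 3 and 14 days were -0.15 and 0.23 for neuronal markers, 0.13 and 0.02 for Schwann cell, 0.22 and -0.99 for erythrocyte, -0.43 and -0.08 for mural and 0.06 and 0.09 for fibroblast markers.

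**Figure D4:**
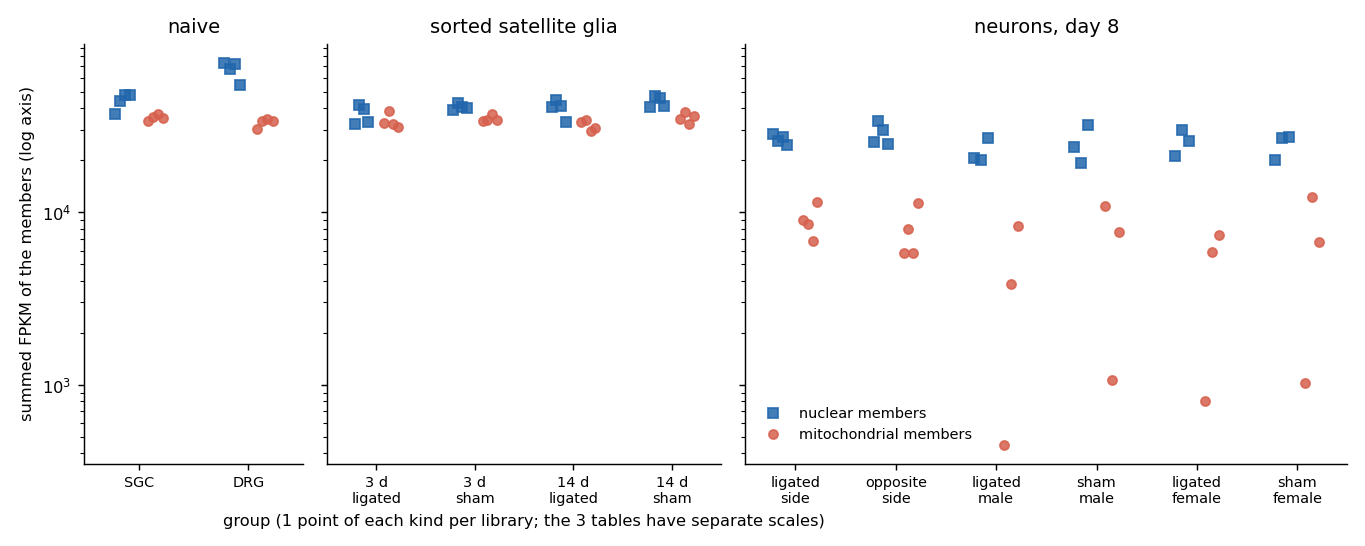
Summed FPKM (log axis) of the nuclear members (squares) and of the mitochondrial members (circles) in every library, by group and table; the 3 tables have separate scales. In naive mice the nuclear sums of SGCs lie below those of DRGs, after surgery the groups overlap, and 4 neuron libraries, 1 in each sexed group, have mitochondrial sums of 450 to 1058 FPKM.

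The third set of comparisons concerned isolated neurons at 8 days, in which 4 libraries stood apart, 1 in each sexed group. Their mitochondrial members summed to 450 and 807 FPKM in a ligated male and a ligated female library and to 1058 and 1018 in a sham male and a sham female library, while the other 16 neuron libraries had 3824 to 12313. Their nuclear members summed to 19276 to 21119 FPKM, where the other 8 sexed libraries had 20027 to 32028, so these sums overlapped. In the same 4 libraries erythrocyte markers summed to 354 to 2322 FPKM, where the other 8 sexed libraries had 1618 to 18891, Schwann cell markers to 2040 to 2855, where the others had 1019 to 1988, and neuronal markers to 11792 to 14010, where the others had 9561 to 14175. What sets these libraries apart was not tested, and the log2 differences of the sexed groups are given with and without them, a choice made after seeing the data. The 4 libraries were picked by a mitochondrial sum under 2000 FPKM, the quantity then compared. Leaving them out therefore narrows the spread of the mitochondrial members by construction.

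Ligation called no member in neurons of both sexes pooled, where 34 of 12145 genes were called (0.28%), nor in males (0.00823%), in females (0.148%), or in the difference between the sexes (0%). No nuclear member had an unadjusted p under 0.05 over both sexes, where 435 of all genes did. Of the 87 nuclear members 50 had a negative difference, with a median of -0.03, where 56.9% of all genes were negative, and without the 4 libraries 65 were negative, with a median of -0.11. All genes had a median of -0.04, and under median-of-ratios scaling the nuclear median was 0.01 with 39 of 87 negative. All 11 mitochondrial members had negative differences with wide errors (median -0.61), and without the 4 libraries they were again all negative (median -0.57). In the authors' deposited table of ligated and sham neurons the differences were smaller. There 11 of 13 mitochondrial members were lower after ligation and 2 higher, with a median log2 fold change of -0.16 and a range of -0.31 to 0.07. The mitochondrial sum was 4444 ± 3325 FPKM in ligated and 6611 ± 4772 in sham mice (n = 6 each), and without the 4 libraries 6352 ± 1960 in ligated and 9397 ± 2627 in sham mice (n = 4 each), which overlapped. In males 68 of the 87 nuclear members were negative (median -0.12), where 58.4% of all genes were (median -0.07), and without the 4 libraries 67 were negative (median -0.30). In females 61 were positive (median 0.07), where 48.6% of all genes were (median -0.01), and without the 4 libraries 53 were positive (median 0.06). The mitochondrial medians were -0.73 in males and -0.47 in females, and without the 4 libraries -0.56 in males and -0.52 in females. The difference between the sexes in the ligation effect was negative for 74 nuclear members, with a median of -0.19 where 57.9% of all genes were negative with a median of -0.08, and without the 4 libraries it was negative for 72, with a median of -0.27. Each sexed group has only 3 libraries and loses 1 of them when the 4 are left out. Genes of a pathway can vary together between libraries, so these shares are no test of a difference between the sexes.

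Single mitochondrial members show the spread. In neurons mt-Nd1 ran from 92.9 FPKM with a median of 1085 to 1692 in ligated mice, and from 223 with a median of 1500 to 3123 in sham mice (-0.73 ± 0.74). mt-Cytb had a median of 1564 FPKM in ligated and 2151 in sham mice (-0.60 ± 0.70), and mt-Co1 one of 845 in ligated and 1345 in sham mice (-0.48 ± 0.69). mt-Nd2 (-0.75 ± 0.77), mt-Nd3 (-0.71 ± 0.88), mt-Nd4 (-0.68 ± 0.75) and mt-Nd5 (-0.61 ± 0.70) had errors larger than their differences. The errors of mt-Co2 (-0.45 ± 0.41), mt-Co3 (-0.54 ± 0.50) and mt-Atp6 (-0.53 ± 0.49) were a little smaller than theirs. mt-Nd6 was listed at 0 in 14 of the 20 neuron libraries and reached 600.1 FPKM in another (-1.50 ± 2.00 for ligated against sham mice). Without the 4 libraries the differences were -0.69 ± 0.31 for mt-Nd1, -0.72 ± 0.33 for mt-Nd2, -0.68 ± 0.34 for mt-Nd3, -0.67 ± 0.33 for mt-Nd4, -0.57 ± 0.28 for mt-Nd5 and -2.26 ± 2.35 for mt-Nd6. They were -0.49 ± 0.29 for mt-Cytb, -0.37 ± 0.30 for mt-Co1, -0.50 ± 0.42 for mt-Co2, -0.56 ± 0.43 for mt-Co3 and -0.44 ± 0.46 for mt-Atp6, and none was called. Because the 4 libraries were picked by their mitochondrial sum, the smaller errors are no sign of a firmer difference. In the authors' deposited table of the same neurons mt-Nd6 had a mean normalised count of 1632 and a log2 fold change of -0.21 (ligated over sham), so reads were counted for it there.

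Among the nuclear members the smallest p-values over both sexes were those of Cox7a1, Ndufs3, Cox7b2, Sdhc and Ndufab1, all with a limma adjusted p of 0.999. Cox7a1 was low in neurons, with 0 to 2.49 FPKM and a median of 0.896 in ligated mice and 1.21 to 6.12 with a median of 2.46 in sham mice (-0.95 ± 0.49). Ndufs3 averaged 92.0 ± 10.6 FPKM in ligated and 105 ± 16.2 in sham mice (-0.18 ± 0.15), and Sdhc 104 ± 12.1 in ligated and 92.1 ± 17.0 in sham mice (0.19 ± 0.15). Cox7b2 (0.61 ± 0.49), a testis form, and Ndufab1 (-0.65 ± 0.63), the mitochondrial acyl carrier protein, had errors only a little smaller than their differences. Without the 4 libraries the differences were -0.97 ± 0.66 for Cox7a1, -0.32 ± 0.19 for Ndufs3, 0.88 ± 0.63 for Cox7b2, 0.17 ± 0.19 for Sdhc and -1.47 ± 0.57 for Ndufab1, none called. In the authors' deposited table no member was called, and 51 of 95 nuclear members were lower after ligation.

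Neurons of the ligated side were compared with those of the opposite side, a contrast in which 81 genes (0.667%) were called, 80 of them higher (0.659%). None was a member. Of the 87 nuclear members 48 had a negative difference (median -0.03, all genes -0.01), and 7 of the 11 mitochondrial ones a positive one. Complex II members were all positive, with a median of 0.15, and complex III had 5 of 8 negative, with a median of -0.25. Ndufs8, an iron-sulfur subunit of complex I, averaged 208 ± 28.6 FPKM on the ligated and 263 ± 10.6 on the opposite side (-0.35 ± 0.19, limma adjusted p = 0.558), and Ndufb8 534 ± 49.9 on the ligated and 693 ± 102 on the opposite side (-0.37 ± 0.20, limma adjusted p = 0.568). In these 2 genes the sides did not overlap. The other nuclear members with the smallest p-values were Ndufa2 (-0.40 ± 0.20), the assembly factor Ndufaf2 (0.58 ± 0.30) and the stalk subunit Atp5f1 (0.33 ± 0.20), and in these the sides overlapped.

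**Figure D5:**
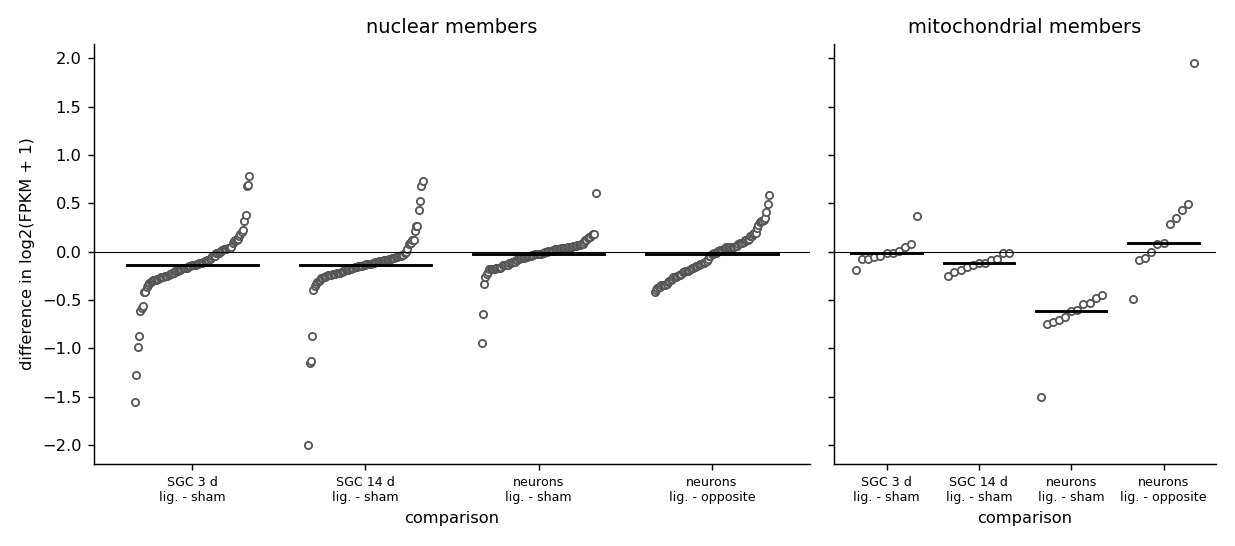
Difference in log2(FPKM + 1) of each member tested after nerve ligation, nuclear members left and mitochondrial members right, 1 open circle per gene in rank order with the median as a bar, for SGCs at 3 and 14 days, for neurons of ligated against sham mice, and for neurons of the ligated against the opposite side. No member passed the test in any column, the nuclear medians are -0.14, -0.13, -0.03 and -0.03, and the mitochondrial median in neurons of ligated against sham mice is -0.61.

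A lack of calls does not show that the members were unaffected. In simulated data built on the SGCs at 3 days, 44 of 100 genes given a log2 change of 1 were called, and 83 of 100 given a change of 2, and for neurons of both sexes these were 38 and 93. The changed genes were drawn at random from all genes with a mean log2(FPKM + 1) above 2, not from the members. These shares are therefore not those of the members. Log2 changes smaller than 1 were not simulated.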

How the data were processed

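The authors' deposited tables hold FPKM per gene, per the labels and the tables' names. The naive table writes decimal commas, which were read as decimal points. The submitters' processing notes name STAR, SAMtools, Cufflinks, DESeq2 and mm10, with no versions. The authors' deposited comparison tables give log2 fold changes, p-values and a signal, the mean normalised count per gene over the samples compared. Their sign was checked on the few genes of the members and lists that the authors called and that were tested here. The fold changes had the opposite sign to the FPKM tables in 1 of 1 such genes at 3 days, 4 of 4 at 14 days and 1 of 1 in neurons. On this thin basis they were turned and are given as ligated over sham.

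Lines sharing an identifier (121 in the naive and surgery tables each, 20 in the neuron table) were summed. Values were tested as log2(FPKM + 1), which understates changes of low genes, with limma 3.58.1 (R 4.3.3) with a trend, 1 fit per table over all its groups, and Benjamini-Hochberg adjustment over all genes at 1 FPKM or more in at least 4 libraries (naive and surgery tables) or 3 (neuron table), the size of the smallest group. A call is an adjusted p under 0.05. Levels are not compared by test across tables, which were scaled separately. Errors after ± are SD for FPKM and SE for log2 differences. The Atp5g1 to Atp5g3 ratio was compared with an exact permutation test in SciPy 1.17.1, and nuclear copies were found with BLAST+ 2.17.0. The fit was tested on simulated data.

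Members and lists were chosen with earlier results of these data known. Named genes are all mitochondrial members, per complex and direction up to 3 called nuclear members with the largest difference (where none was called in a comparison, the 5 with the smallest p), isoform sets, Sdha to Sdhd, and of each other list up to 3 called genes per direction with Ppargc1a, Tfam and Cycs. Others were chosen after their values were seen: Uqcr10, Uqcrb, Uqcrc2, Atp5j and Atp5h where they did not meet the rule. Alternatives were other pseudocounts, filters, scalings, a replicate block and leaving out each library.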

Additional observations from a re-analysis of the deposited data

Results flagged for a closer look

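Among 254 groups of values examined, each from 4 libraries, 21 held a library far from the others by Dixon's criterion, where chance gives about 1 in 20. The sexed neuron groups, with 3 libraries each, were not examined. No explanation was tested.

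Whole-DRG replicate 4 held 7 of them. Its complex V sum was 12923 FPKM, where the other 3 had 16996 to 17141. Ndufa11 (174 FPKM, others 237 to 248), Ndufaf5 (18.0, others 28.8 to 29.7), Sdha (53.4, others 64.1 to 65.3), Cox7a2 (939, others 1380 to 1435) and Ndufa4 (3190, others 5086 to 5328) were lowest there, and Cox4i2 (12.1, others 5.19 to 5.55) highest. The same library had the lowest nuclear sum of the DRGs, and without it 62 members were called in place of 57. In naive SGC replicate 3, Cox6a1 was lowest with 118 FPKM (others 478 to 548) and Cox6b2 highest with 176 (others 105 to 115).

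After surgery, ligated replicate 2 at 3 days was highest in mt-Nd2 (4964 FPKM, others 3456 to 3661) and mt-Nd6 (6057, others 4788 to 5001), and sham replicate 1 at 3 days lowest in mt-Nd3 (84.9, others 96.0 to 96.9). Atp5h was lowest in ligated replicate 4 at 3 days (522, others 581 to 583) and highest in ligated replicate 1 at 14 days (787, others 675 to 692). Ligated replicate 4 at 14 days was lowest in Atp5b (509, others 592 to 606) and Atp5j (1164, others 1373 to 1384).

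Among neurons, 1 library of the ligated side was lowest in Ndufab1 (37.2 FPKM, others 104 to 115) and highest in Cox7b2 (3.92, others listed at 0). On the opposite side, 1 library was highest in mt-Nd6 (600.1, others listed at 0) and Ndufs8 (279, others 257 to 260), and another in Cox7b2 (0.251, others listed at 0).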

How the results depend on the processing

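In naive mice 57 members were called, 44 to 75 under the other settings and 43 to 62 with 1 library left out. Of the 57, 35 kept their call in all 16 alternatives and none reversed. The summed nuclear log2 ratio of SGCs over DRGs, -0.60, became -1.01 as a share of FPKM with mitochondrial rows left out and -0.38 as a share of protein-coding nuclear FPKM, the second added after seeing the data. The mitochondrial ratio, 0.09, became -0.32 and 0.30, so its direction depends on the scaling, and the cause was not tested. With 1 library left out these ratios ran from -0.69 to -0.51 and from 0.05 to 0.11. No member was called after ligation under any alternative run, in SGCs or neurons. The neuron mitochondrial ratio of ligated over sham mice ran from -1.07 to -0.12 with 1 library left out.

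Same-numbered libraries had correlations of their deviations of 0.00273 to 0.186 in naive mice (different numbers -0.105 to 0.114), -0.0758 to 0.00307 at 3 days (-0.0773 to 0.0750) and -0.0384 to 0.0687 at 14 days (-0.0713 to 0.0949), so not every pair passed 0.1 and the numbers were not taken to pair libraries. A fit with the replicate block called 50 members in naive mice and 0 after surgery. No paired analysis was possible because columns carry no replicate numbers in the neuron table, a limit of that table alone. Without counts, the depth behind low values is unknown.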

Other observations

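Some nuclear members varied between SGC libraries of 1 group far more than their neighbours in the same complexes, noticed after their values were seen. In naive SGCs, Ndufb2 had 108, 211, 0 and 95.1 FPKM, and Ndufs1, the largest core subunit of complex I, had 117, 16.3, 0 and 22.8. Over the 16 SGC libraries after surgery Ndufb2 was listed at 0 in 5 and reached 136 FPKM, Ndufs1 was listed at 0 in 6 and reached 128, Cox6a1 ran from 101 to 709 and Cox8a from 112 to 564. The whole-DRG libraries varied too: Ndufb2 had 334, 101, 101 and 232 FPKM and Ndufs1 22.2, 22.2, 66.7 and 16.6. In the same libraries Cox6a1 had 1075, 413, 454 and 820 FPKM and Cox8a 993, 328, 327 and 756. In the 20 neuron libraries Ndufb2 ran from 143 to 444 FPKM, Cox6a1 from 1331 to 1856 and Cox8a from 660 to 1148. Cell type, preparation and table differ together between neurons and the other libraries and cannot be told apart.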
